A study of Homo sapiens with 12 samples.

Results

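The genes described here are 59 protein-coding genes of human chromosome 21, read in TeloHAEC, endothelial cells of the human aorta that telomerase keeps dividing. They came from a list of 60 symbols chosen by their TPM in a line targeted at TSPAN14 against the control line, where transcripts of this chromosome stood higher, and a symbol was kept where its mean over the 12 libraries reached 1 TPM. TPM is transcript abundance per length, scaled to a common total in each library. TIAM1, an activator of the small GTPase Rac, was the only listed symbol below that mean, at no more than 0.0388 TPM in any library, and CXADR was the lowest above it, at a mean of 1.93 TPM. The deposited table held 35587 symbols, of which 229 were protein-coding genes of chromosome 21 and 112 of those reached a mean of 1 TPM, so 53 coding genes of the chromosome lie outside the list.

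Polyadenylated RNA was collected from 3 TeloHAEC lines on 2 coatings, with 2 libraries for each of the 6 groups. The NT line is the control, labelled wild type, the TKO line received Cas9 with a guide against TSPAN14, and the NKO line Cas9 with a guide against NOTCH1. Cells were plated on IgG, the control coating, or on Delta-like ligand 4 (DLL4), a Notch ligand, each given as 2.5 mg/mL, and were harvested after 24 hours. Each targeted gene is represented by 1 line, so an effect of the targeted gene and any other difference between the lines cannot be told apart. Libraries of a group are labelled as biological replicates, with no separate cultures named, so errors and p-values measure the spread between these libraries. Libraries carry here the numbers of their columns, 2 and 3 for NT and TKO and 1 and 2 for NKO.

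Chromosome 21 is the smallest human autosome, and an extra copy of it causes Down syndrome, in which many of its transcripts are raised. Its long arm carries APP, the precursor of amyloid beta, SOD1, the cytosolic superoxide dismutase, a cluster of interferon and interleukin receptor genes, and transcription factors such as RUNX1, ETS2 and GABPA. Several of its genes act in endothelium: RCAN1 inhibits calcineurin, the phosphatase that VEGF signalling engages, and ADAMTS1 is a secreted protease that restrains blood vessel growth. The files hold no measure of DNA copy number in any of the 3 lines.

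TPM keep no record of read number, so the depth of a library is unknown and its part in a value was not tested. TSPAN14 itself was still transcribed in TKO cells, at 137 ± 14.8 TPM (SD, n = 2) on IgG against 204 ± 20.5 in NT cells. All 10 endothelial markers examined had a mean of at least 1 TPM, with a summed level of 2165 to 2395 TPM in TKO and 2195 to 2548 TPM in NT libraries. Among 5 epithelial markers the keratin genes KRT8, KRT18 and KRT19 were well expressed, and the list summed to 724 to 864 TPM in NT, 912 to 1304 TPM in TKO and 906 to 1345 TPM in NKO libraries, while EPCAM and CDH1 stayed at or below 0.365 TPM. The 5 smooth muscle markers summed to 35.4 to 49.0 TPM in NT, 40.9 to 85.5 TPM in TKO and 67.5 to 112 TPM in NKO libraries, with MYH11, CNN1 and DES near 0. The 5 leukocyte markers summed to 42.9 to 53.7 TPM in NT, 55.0 to 68.1 TPM in TKO and 29.2 to 40.1 TPM in NKO libraries, so the TKO libraries stood above the others. Most of that sum was CD68 (mean 45.0 TPM), CD14 had a mean of 2.01 TPM, and PTPRC, CD3E and LYZ had means below 1 TPM. The 5 fibroblast markers, each with a mean below 1 TPM, summed to 1.52 to 2.43 TPM in NT, 3.71 to 4.27 TPM in TKO and 1.503 to 1.73 TPM in NKO libraries, again highest in TKO. The part of these lists in the results below was not tested. The pseudogene entry KPNA2P2 took 0.280% to 5.61% of a library's TPM.

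Most of the 59 genes stood higher in TKO than in NT cells on both coatings, by a median that was alike on the 2. The median difference of log2(TPM + 1) was 0.54 on IgG, with 57 genes higher and 2 lower, and 0.49 on DLL4, with 53 higher and 6 lower. As a ratio of mean TPM the median was 1.49 on IgG and 1.44 on DLL4. The ratio lay between 1.25 and 1.75 in 30 genes on IgG and 34 on DLL4. Among the 53 coding genes of the chromosome outside the list it did so in 15 and 21. The share of all tested genes between these bounds was not counted. BACE2, CXADR, CBR3, BTG3, ETS2 and AGPAT3 had the largest mean differences, and C2CD2 and IL10RB were lower in TKO cells. Because the genes were proposed from this comparison, its values are a description without a test. Over all 13299 genes that reached 1 TPM in at least 2 libraries the median differences were 0.04 and 0.03.

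**Figure D1:**
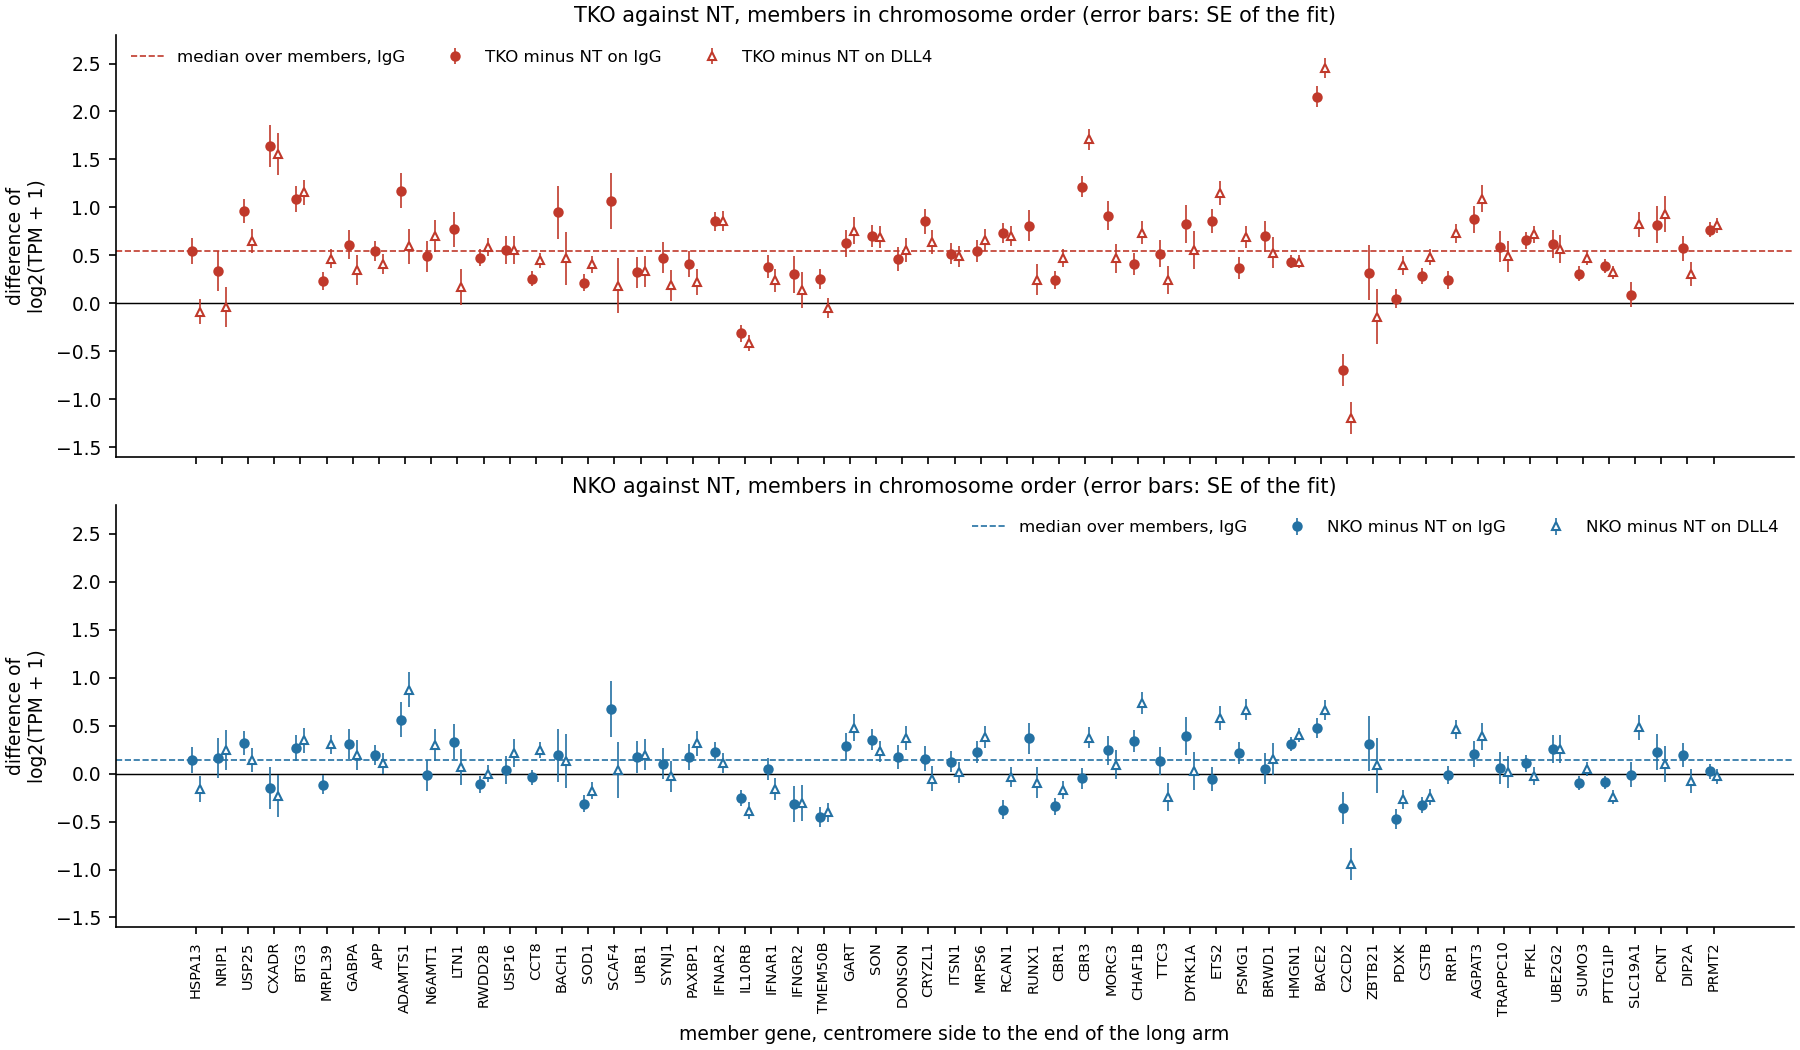
Difference of log2(TPM + 1) between TKO and NT cells (upper panel) and between NKO and NT cells (lower panel) for the 59 genes in chromosome order, on IgG (filled circles) and DLL4 (open triangles), with error bars of 1 SE of the fit and a dashed line at the median on IgG. In the upper panel the points lie around 0.54 with BACE2, CXADR and CBR3 far above and C2CD2 and IL10RB below 0, and in the lower panel they lie around 0.14 on IgG.

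Both TKO libraries lay above both NT libraries for 54 of the 59 genes on IgG, where 34.0% of all tested genes did so, and for 49 on DLL4, where 37.1% did. They lay below in 2 genes on each coating, beside 28.0% and 28.2% of all tested genes. On both coatings together 47 genes stood above, against 22.7% of all tested genes, and these counts again follow from how the genes were proposed. The median could be read from each of the 4 pairs of a TKO and an NT library, and it ran from 0.44 to 0.65 on IgG and from 0.41 to 0.61 on DLL4. Set against the mean of the NT libraries, the gene median was 0.49 and 0.65 in TKO libraries 2 and 3 on IgG and 0.57 and 0.44 on DLL4. The difference on IgG and that on DLL4 had a Pearson correlation of 0.78 across the 59 genes, which share their lines and library preparation, beside 0.81 across all tested genes.

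**Figure D2:**
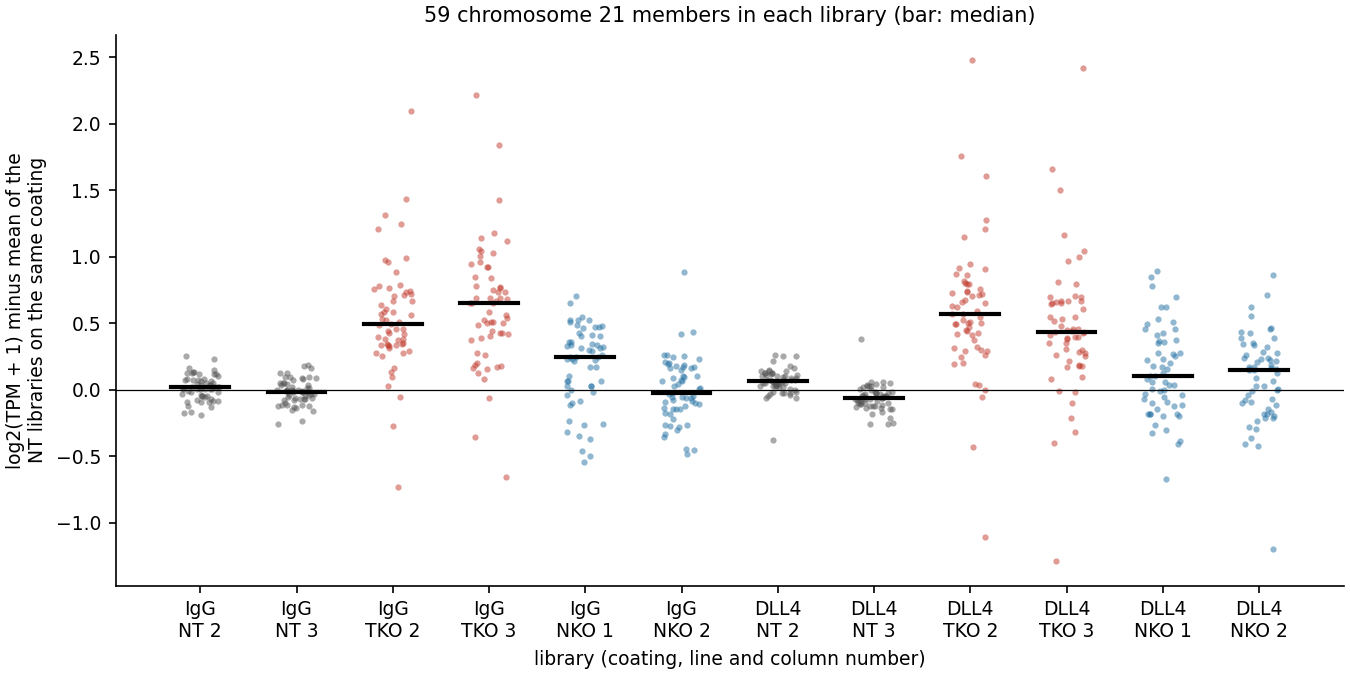
Each of the 59 genes in each of the 12 libraries, as log2(TPM + 1) minus the mean of the 2 NT libraries on the same coating; bars are medians. The 4 TKO medians lie between 0.44 and 0.65, and the 4 NKO medians between -0.02 and 0.25.

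The amyloid genes held both the largest difference and the most abundant transcript. BACE2 (chr21:41167801-41282518, plus strand, GENCODE 29 on GRCh38), a protease that cleaves APP within the amyloid beta sequence, was at 36.4 and 46.0 TPM in the NT libraries and 178 and 194 TPM in the TKO libraries on IgG, and at 36.7 and 35.3 against 205 and 197 TPM on DLL4. Every TKO library thus stood well clear of every NT library, with differences of 2.16 ± 0.11 (SE) and 2.45 ± 0.11. APP was at 521 and 515 TPM in NT and 702 and 814 TPM in TKO libraries on IgG, and at 617 and 509 against 779 and 714 TPM on DLL4. Its ratios of 1.46 and 1.33 were near the middle of the 59 genes.

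Among the enzymes of redox and carbonyl metabolism, the neighbouring reductase genes CBR1 and CBR3 differed most from each other. CBR3 was at 24.3 and 24.1 TPM in NT and 61.6 and 53.9 TPM in TKO libraries on IgG, and at 19.7 and 21.2 against 71.6 and 66.9 TPM on DLL4, a difference of 1.22 ± 0.11 and 1.71 ± 0.11. CBR1, which lies upstream of CBR3 on the same strand and was the more abundant of the pair, was at 155 and 170 against 204 and 182 TPM on IgG and 147 and 153 against 223 and 196 TPM on DLL4, a difference of 0.24 ± 0.09 and 0.47 ± 0.09. The groups do not overlap for either gene, and their sequences are close enough that reads can be shared between them. SOD1 was at 322 and 291 TPM in NT and 391 and 322 TPM in TKO libraries on IgG, so that TKO library 3 (322.48 TPM) barely cleared NT library 2 (321.65 TPM). On DLL4 it was at 319 and 310 against 420 and 413 TPM, with ratios of 1.16 and 1.33 on the 2 coatings. PRMT2, an arginine methyltransferase, had libraries close to each other, at 96.7 and 94.1 against 162 and 164 TPM on IgG and 105 and 97.1 against 178 and 178 TPM on DLL4.

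Transcription factor and chromatin genes covered a wide range of differences. ETS2, a factor activated by Ras signalling, was at 54.9 and 54.5 TPM in NT and 93.8 and 106 TPM in TKO libraries on IgG, and at 27.9 and 23.8 against 58.4 and 59.0 TPM on DLL4. RUNX1, the blood and haemogenic endothelium factor, was at 7.31 and 7.95 against 11.7 and 17.0 TPM on IgG and 8.55 and 8.24 against 10.7 and 9.64 TPM on DLL4. Its difference was 0.81 ± 0.16 on the first coating and 0.25 ± 0.16 on the second, where the 2 groups were separate but close. GABPA, which drives many genes of mitochondria and the cell cycle, had ratios of 1.62 and 1.31, but its exons overlap those of ATP5PF, which was far more abundant. BACH1, a repressor of haem and antioxidant genes, was at 3.20 and 2.50 against 5.31 and 7.66 TPM on IgG, and at 4.36 and 2.73 against 6.39 and 4.19 TPM on DLL4, where the groups overlap. HMGN1, a nucleosome binding protein with many processed copies in the genome, was at 398 and 357 against 506 and 513 TPM on IgG and 344 and 356 against 470 and 478 TPM on DLL4. CHAF1B, a subunit of the histone chaperone CAF-1, had ratios of 1.36 and 1.75. The bromodomain gene BRWD1 had ratios of 1.74 and 1.53 and MORC3, an ATPase of nuclear bodies, 2.05 and 1.44. BTG3, an antiproliferative protein, was at 26.5 and 24.0 against 61.3 and 48.8 TPM on IgG and 23.8 and 22.3 against 57.2 and 48.4 TPM on DLL4.

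Promoter sequences are shown for ETS2, RUNX1 and IFNAR1, members with large, uneven and small differences, because the genes were higher together and these windows hold no annotated exon. Each line gives the 150 bases just before the gene's start in RefSeq's promoter table (GRCh38.p14), 5′ to 3′ on the gene's strand, with CCAAT boxes on either strand in capitals.
ETS2, chr21:38805033-38805182, plus strand: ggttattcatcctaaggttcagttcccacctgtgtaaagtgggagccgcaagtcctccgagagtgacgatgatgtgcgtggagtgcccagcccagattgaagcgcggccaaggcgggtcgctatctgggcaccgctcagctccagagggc
RUNX1, chr21:34888700-34888849, minus strand: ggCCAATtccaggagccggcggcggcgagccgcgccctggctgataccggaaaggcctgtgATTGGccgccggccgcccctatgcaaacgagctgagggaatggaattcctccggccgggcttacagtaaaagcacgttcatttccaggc
IFNAR1, chr21:33324245-33324394, plus strand: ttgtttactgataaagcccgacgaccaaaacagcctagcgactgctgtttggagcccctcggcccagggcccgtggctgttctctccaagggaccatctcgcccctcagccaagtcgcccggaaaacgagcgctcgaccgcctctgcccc
RUNX1 held 2 CCAAT matches and the other 2 windows held 0. Over the 46 of the 59 genes with an entry in that table, 13 windows (28.3%) held CCAAT, beside 26.6% of all 14896 coding promoters. In the whole promoter window of 300 bases, searched on both strands, the ETS site CCGGAAGT was in 6 of the 46 (13.0%), beside 9.54% of promoters of expressed coding genes, in GABPA, LTN1, MORC3, PTTG1IP, TRAPPC10 and USP16. The NRF1 motif was in 9 (19.6%, beside 12.3%) and the BACH1 motif in 0 (beside 0.0981%). A match is a string of letters and not a measured site.

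The receptor genes for interferons and the interleukin 10 family sit side by side and did not move alike. IFNAR2, the subunit that carries the main docking sites of the type I interferon receptor, was at 11.995 and 11.4 TPM in NT and 20.9 and 23.1 TPM in TKO libraries on IgG, and at 14.1 and 13.1 against 26.6 and 24.3 TPM on DLL4. IL10RB (chr21:33266358-33310187, plus strand), its neighbour and the shared receptor chain of interleukin 10, interleukin 22 and lambda interferons, was at 23.8 and 23.1 against 19.2 and 18.1 TPM on IgG and 30.0 and 28.7 against 21.5 and 22.0 TPM on DLL4. IFNAR2 was thus above and IL10RB below the NT libraries without overlap, with differences of 0.85 ± 0.10 and 0.85 ± 0.10 for the former and -0.31 ± 0.09 and -0.42 ± 0.09 for the latter. IFNAR1, the other type I subunit, lay in between with 31.9 and 31.8 against 38.7 and 45.1 TPM on IgG and 38.2 and 35.5 against 45.4 and 42.1 TPM on DLL4. IFNGR2, a chain of the interferon gamma receptor, was at 26.8 and 26.0 against 28.3 and 37.9 TPM on IgG, and overlapped NT on DLL4 with 37.5 and 26.0 against 38.5 and 31.0 TPM. Its exons overlap those of TMEM50B on the other strand at a similar level. The difference of IFNGR2 on DLL4, 0.14 ± 0.19, became -0.12 without NT library 3.

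Signalling, adhesion and matrix genes differed in how far they stood from NT. CXADR (chr21:17512382-17593579, plus strand), the coxsackievirus and adenovirus receptor of cell junctions, went from a trace of 0.686 and 0.901 TPM in NT libraries to 3.85 and 5.42 TPM in TKO libraries on IgG, and from 1.11 and 0.489 to 4.41 and 4.02 TPM on DLL4. ADAMTS1 was at 43.5 and 42.6 against 101 and 96.1 TPM on IgG but at 30.5 and 23.6 against 51.1 and 32.9 TPM on DLL4, where TKO library 3 came close to the control. Its ratio was 2.29 on IgG and 1.55 on DLL4. RCAN1 was at 41.7 and 37.8 against 68.8 and 64.7 TPM on IgG and 26.7 and 24.4 against 43.8 and 40.5 TPM on DLL4, with near equal ratios of 1.68 and 1.65. DYRK1A, a kinase that primes NFAT for export from the nucleus, was at 5.60 and 4.62 against 8.46 and 11.4 TPM on IgG and 7.51 and 5.34 against 10.7 and 8.93 TPM on DLL4. ITSN1, a scaffold of endocytosis, had ratios of 1.45 and 1.41, and SYNJ1, a phosphoinositide phosphatase, 1.49 and 1.17. NRIP1, a corepressor of nuclear receptors, was at 5.53 and 5.34 against 6.05 and 8.33 TPM on IgG, and at 5.38 and 4.55 against 4.74 and 4.88 TPM on DLL4, where the groups overlap.

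Metabolic genes included AGPAT3, an acyltransferase of phospholipid synthesis, at 29.1 and 32.8 against 52.4 and 63.0 TPM on IgG and 29.3 and 23.9 against 62.6 and 52.7 TPM on DLL4. GART, a trifunctional enzyme of purine synthesis, was at 44.8 and 51.2 against 67.6 and 82.0 TPM on IgG and 40.1 and 35.3 against 69.4 and 59.6 TPM on DLL4. SON, a splicing cofactor transcribed away from GART, was at 68.5 and 73.2 against 113 and 120 TPM on IgG and 80.6 and 67.5 against 122 and 117 TPM on DLL4. These head-to-head genes, whose annotated spans overlap, had ratios of 1.56 and 1.64 on IgG and 1.71 and 1.62 on DLL4. PFKL, liver-type phosphofructokinase, had ratios of 1.58 and 1.65. SLC19A1, the reduced folate carrier, had 1.06 on IgG and 1.80 on DLL4, and PDXK, pyridoxal kinase, 1.04 and 1.32. The exons of SLC19A1 overlap those of COL18A1 on the other strand, which had a mean of 286 TPM against 40.8 TPM. CRYZL1, a quinone reductase-like gene, had ratios of 1.85 and 1.58.

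Genes of protein synthesis, folding and turnover had ratios from 1.18 to 2.01 on IgG and from 0.939 to 1.67 on DLL4. CCT8, a subunit of the cytosolic chaperonin, was at 321 and 292 against 387 and 347 TPM on IgG and 261 and 250 against 362 and 336 TPM on DLL4. The mitochondrial ribosome genes MRPL39 and MRPS6 had ratios of 1.18 and 1.48 on IgG and of 1.39 and 1.59 on DLL4. PSMG1, a proteasome assembly chaperone, had 1.30 and 1.62, and the ribosome biogenesis genes RRP1 and URB1 1.18 and 1.29 on IgG and 1.67 and 1.30 on DLL4. On IgG and DLL4 the ubiquitin conjugating enzyme UBE2G2 had ratios of 1.55 and 1.49, SUMO3, a SUMO protein with near copies, 1.24 and 1.39, and the deubiquitinases USP25 and USP16 2.01 and 1.60 for the former and 1.49 and 1.49 for the latter. LTN1, the ubiquitin ligase of stalled ribosomes, had 1.96 and 1.15, and TTC3, a ubiquitin ligase acting on Akt, 1.47 and 1.19. CSTB, the protease inhibitor cystatin B, had 1.22 and 1.40, and the endoplasmic reticulum chaperone gene HSPA13 1.49 and 0.939.

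The remaining members completed the same picture. Ratios on IgG and DLL4 were 1.87 and 2.04 for PCNT, a scaffold of the centrosome, 1.39 and 1.49 for the replication fork gene DONSON, and 1.58 and 1.43 for TRAPPC10, a subunit of a vesicle tethering complex. They were 1.46 and 1.72 for the methyltransferase gene N6AMT1, 1.31 and 1.25 for PTTG1IP, a binding partner of securin, and 1.52 and 1.25 for DIP2A. The ratios of RWDD2B were 1.41 and 1.53 and those of PAXBP1, a partner of PAX factors, 1.36 and 1.17. SCAF4, a factor that restrains early polyadenylation, had libraries far apart within its groups, at 21.3 and 14.6 against 29.5 and 49.1 TPM on IgG and 14.9 and 25.9 against 22.7 and 22.3 TPM on DLL4. Without NT library 2 on DLL4 its difference there went from 0.18 to -0.19.

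**Figure D3:**
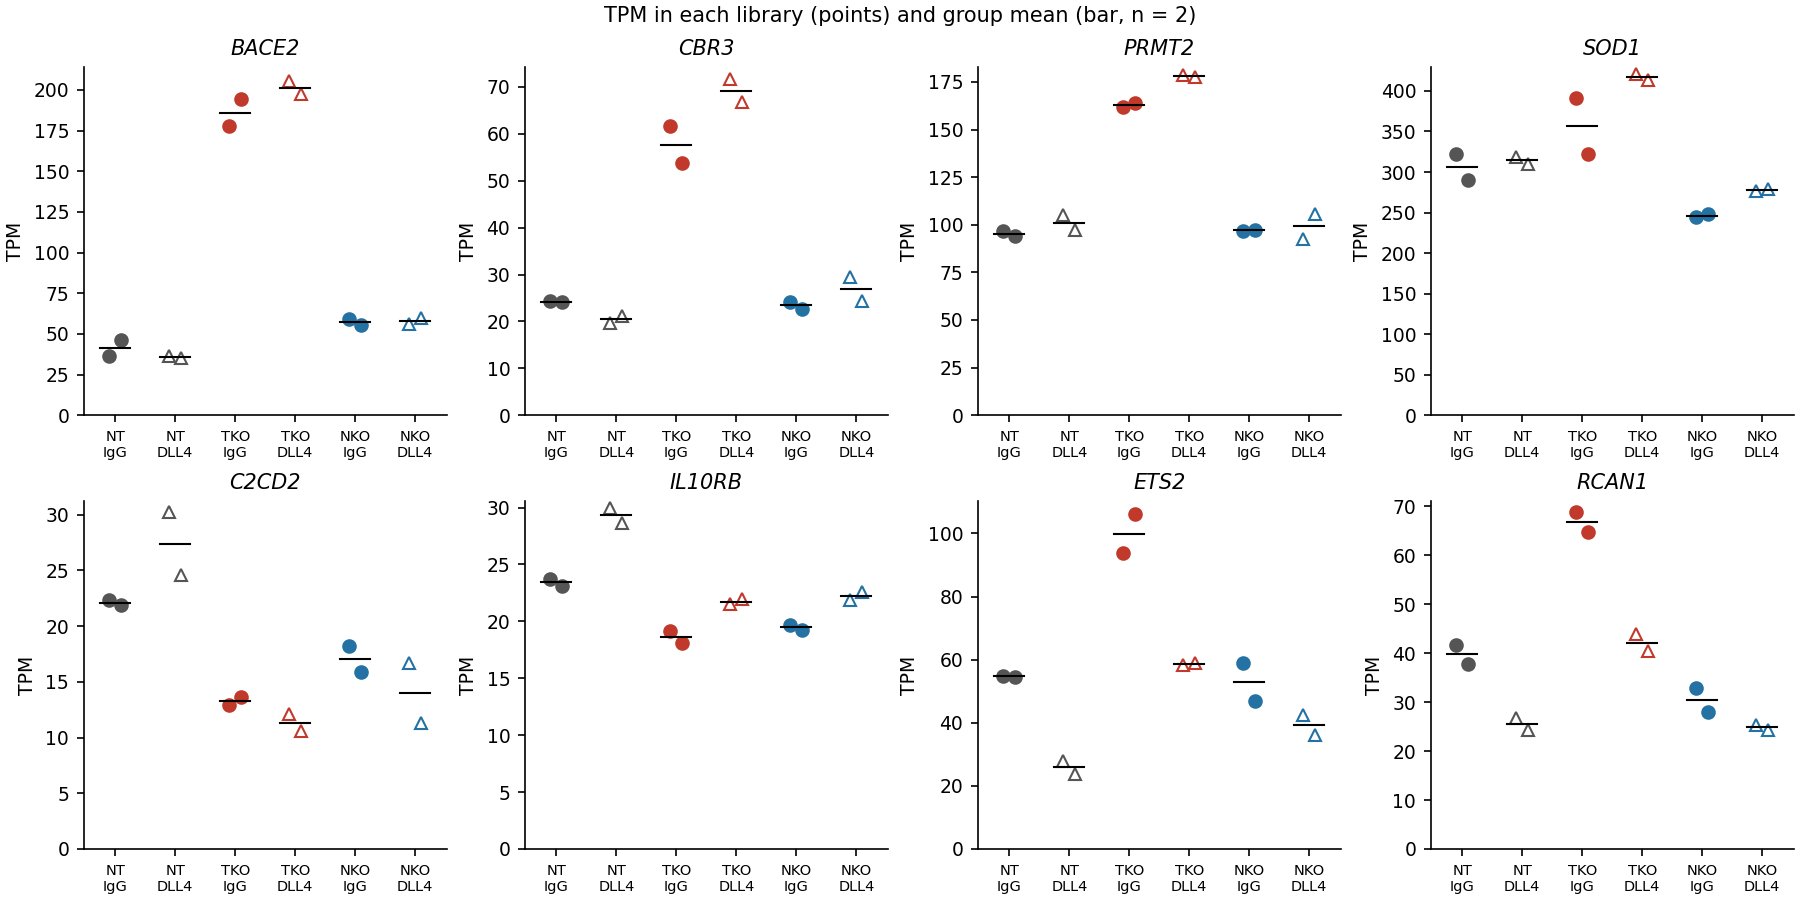
TPM of 8 of the genes in each library (points) with the group mean (bar, n = 2), by line and coating. BACE2, CBR3 and PRMT2 show TKO libraries far above both other lines, C2CD2 and IL10RB show both targeted lines below NT on DLL4, and ETS2 and RCAN1 were lower on DLL4 than on IgG in NT and TKO libraries.

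Of the 59 genes 12 did not stand above NT on both coatings. HSPA13, NRIP1, LTN1, BACH1, SCAF4, IFNGR2 and TMEM50B were above on IgG and overlapped NT on DLL4, and PDXK and SLC19A1 were above on DLL4 and overlapped it on IgG. ZBTB21, a zinc finger gene at 2.82 to 6.02 TPM in NT and TKO libraries, overlapped on both coatings. C2CD2 (chr21:41885112-41953890, minus strand), which encodes a C2 domain protein, was at 22.4 and 21.8 TPM in NT and 12.9 and 13.7 TPM in TKO libraries on IgG, and at 30.2 and 24.5 against 12.1 and 10.6 TPM on DLL4. It stood below NT without overlap, with differences of -0.69 ± 0.17 and -1.20 ± 0.17, and lies between BACE2 and ZBTB21 on the chromosome. TMEM50B, a membrane protein gene, was at 26.7 and 23.1 against 29.8 and 30.0 TPM on IgG and 33.0 and 30.8 against 31.9 and 29.7 TPM on DLL4. PDXK was at 97.6 and 111 against 117 and 99.7 TPM on IgG.

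The genes were also read by position and by level. In chromosome order, the 20 genes from HSPA13 to PAXBP1 had median differences of 0.54 on IgG and 0.43 on DLL4, the 20 from IFNAR2 to ETS2 0.59 and 0.55, and the 19 from PSMG1 to PRMT2 0.43 and 0.53. The other coding genes were split at the same bounds, with those before HSPA13, from position 5022493 on, counted in the first group. Their medians were 0.35 and 0.47 (14 genes), 0.75 and 0.70 (10 genes) and 0.24 and 0.42 (29 genes). The middle group was highest among them on both coatings. The first group joins entries from 5022493 to 7777853 with genes from 25639272 on, so its median describes no single stretch. GATD3B, CBSL, U2AF1L5 and SMIM11B of the former resemble in name GATD3A, CBS, U2AF1 and SMIM11A of later groups. SMIM11B and SMIM11A were at 36.3 and 7.81 TPM in TKO library 2 on IgG, and at 2.58 and 33.3 TPM in TKO library 3. Sharing of reads between such entries was not tested. By mean level, 20 genes under 20 TPM had medians of 0.60 and 0.41, 20 genes from 20 to 50 TPM 0.53 and 0.56, and 19 genes at 50 TPM or more 0.43 and 0.56. The order of the level classes was not the same on the 2 coatings, and no test was made of position or level.

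The other 53 coding genes of the chromosome that reached 1 TPM had median differences of 0.37 on IgG and 0.46 on DLL4. Of these, 30 stood above NT on both coatings, where 22.7% of all tested genes did. Over all 112 coding genes of the chromosome that reached 1 TPM the median was 0.48 on each coating. That was the second highest of the 23 chromosomes examined. Chromosome 11 was higher, at 0.53 and 0.57, and chromosome 18 came next, at 0.46 on each coating, while the medians of the remaining chromosomes lay between -0.08 and 0.08. The 16 noncoding entries of chromosome 21 that were tested had medians of 0.10 and 0.03, with 9 higher and 7 lower on IgG and 8 and 8 on DLL4. They were not held to a mean of 1 TPM, and the highest mean was 3.57 TPM (RNA5SP490). The scale of log2(TPM + 1) understates differences at such levels without changing their sign, so the sizes of these medians are not on a par with those of the coding genes. The entries between 6034690 and 9814009 were all lower in TKO cells on both coatings, CR381653.2 with a ratio of 0.0602 over both. Those from 18857779 on, other than PPIAP22 and AP001052.1, had a positive mean difference over the coatings, SSR4P1 with a ratio of 2.37. This split by position was not tested. Entry CU639417.1 had the same TPM in every library as H2BFS, which is among the 53 coding genes.

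**Figure D4:**
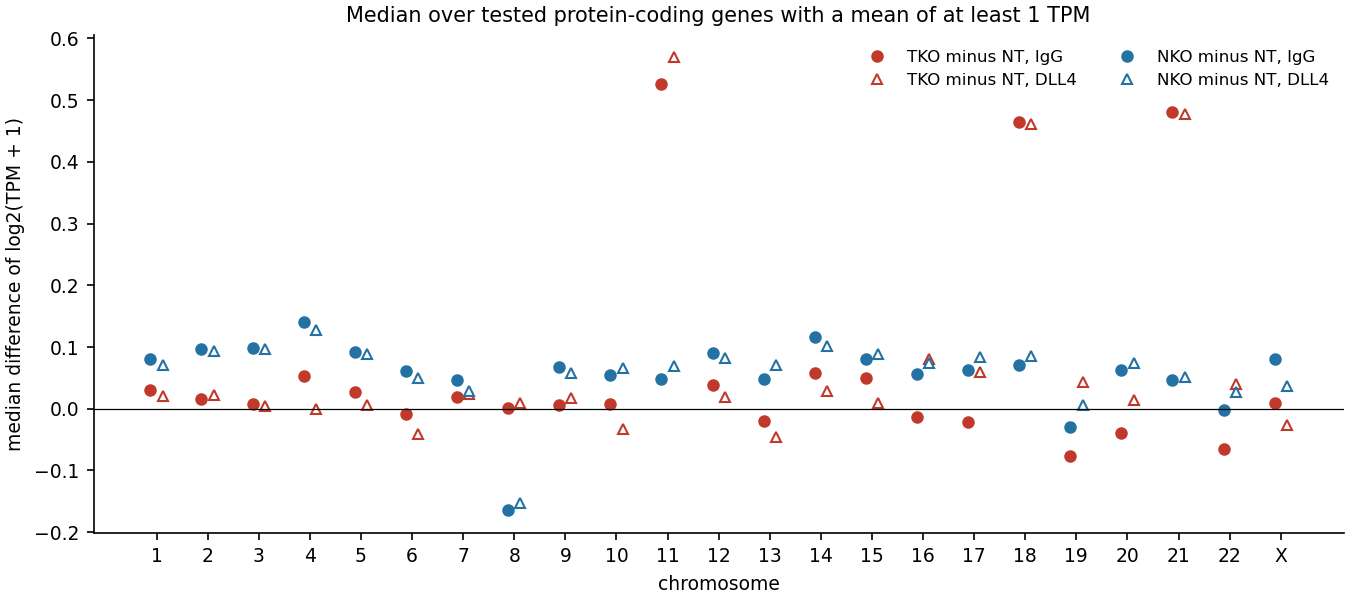
Median difference of log2(TPM + 1) by chromosome over protein-coding genes with a mean of at least 1 TPM, for TKO minus NT (red) and NKO minus NT (blue), on IgG (circles) and DLL4 (triangles). In red, chromosomes 11, 18 and 21 lie between 0.46 and 0.57 and the others between -0.08 and 0.08.

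In the NOTCH1-targeted line the 59 genes lay on both sides of the control, with 39 higher and 20 lower on IgG and 38 and 21 on DLL4. Their median difference from NT was 0.14 on IgG and 0.10 on DLL4, where all tested genes had 0.06 and 0.06, and chromosome 21 ranked 20 of 23 on IgG and 17 on DLL4, with a median of 0.05 on each. Both NKO libraries lay above both NT libraries in 21 genes on IgG (30.9% of all tested genes did) and 27 on DLL4 (37.1%), and below in 13 (21.2%) and 12 (25.0%). On IgG 8 genes passed limma's test with Benjamini-Hochberg adjustment over all genes at 0.05, 2 up and 6 down, beside 10.7% of all genes (4.92% up and 5.74% down). BACE2 rose from 36.4 and 46.0 to 59.2 and 55.6 TPM (0.48 ± 0.11, limma adjusted p = 0.015), and HMGN1 rose by 0.31 ± 0.07. PDXK fell from 97.6 and 111 to 73.6 and 76.1 TPM (-0.47 ± 0.10, limma adjusted p = 0.012), and TMEM50B, CSTB, CBR1, RCAN1 and SOD1 fell by 0.45, 0.32, 0.34, 0.37 and 0.31. For SOD1 that was from 322 and 291 to 245 and 248 TPM (limma adjusted p = 0.045). This comparison and that of TKO cells share the NT libraries. The member median was 0.25 in NKO library 1 and -0.02 in library 2, and without library 1 the only call left was that of RCAN1.

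The 8 calls on IgG were fragile in the other libraries as well. Without NT library 2 the calls of BACE2, TMEM50B, CSTB, CBR1, RCAN1 and SOD1 ended, without NT library 3 those of PDXK, HMGN1, CSTB, CBR1, RCAN1 and SOD1, and 2 genes passed in either case. Without NKO library 2 the calls of CBR1, RCAN1 and SOD1 ended. Those of RCAN1 and SOD1 also ended without any 1 of the 6 DLL4 libraries, that of CBR1 without either DLL4 library of NT and that of CSTB without either DLL4 library of TKO. The limma adjusted p of a lost call lay between 0.052 (RCAN1 without DLL4 NT library 3) and 0.23 (SOD1 without NT library 2).

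On DLL4 16 of the 59 genes differed between NKO and NT cells by limma's test, 12 up and 4 down, beside 20.7% of all genes (11.4% up and 9.31% down). CHAF1B rose from 8.28 and 7.74 to 15.2 and 12.9 TPM (0.73 ± 0.12, limma adjusted p = 0.0014) and PSMG1 from 83.4 and 77.2 to 138 and 118 TPM (0.67 ± 0.11). BACE2 rose by 0.67 ± 0.11 to 55.8 and 59.5 TPM and HMGN1 by 0.40 ± 0.07 to 448 and 480 TPM. C2CD2 fell to 16.7 and 11.3 TPM (-0.94 ± 0.17, limma adjusted p = 0.0029). These 5 genes passed with every library left out in turn.

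ADAMTS1 (0.88 ± 0.18), ETS2 (0.58 ± 0.13), SLC19A1 (0.48 ± 0.13) and RRP1 (0.46 ± 0.10) also rose in NKO cells on DLL4, and TMEM50B (-0.40 ± 0.10), IL10RB (-0.39 ± 0.09) and PTTG1IP (-0.24 ± 0.07) fell. CBR3, GART, MRPS6 and MRPL39 rose by less than 0.5 and had the largest p among the calls. Without NT library 3 the call of each of these genes other than IL10RB ended, and without NKO library 1 that of each other than ADAMTS1, which left 6 calls in either case. Without NT library 2 the calls of IL10RB, TMEM50B, SLC19A1, PTTG1IP, CBR3, GART and MRPL39 ended and 9 were left, and without NKO library 2 those of TMEM50B, SLC19A1 and MRPS6. CBR3, MRPS6 and MRPL39 were also lost without either TKO library on DLL4, and MRPL39 without any 1 of the 4 NT and NKO libraries on IgG.

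Set side by side, TKO and NKO cells differed in most of the 59 genes. The level was higher in TKO than in NKO cells for 57 genes on IgG and 53 on DLL4, with a median difference of 0.44 and 0.37. Both TKO libraries lay above both NKO libraries in 48 and 46 genes, where 24.6% and 30.7% of all tested genes did so, and since the genes were proposed from the TKO libraries this is again a description. IL10RB, at 19.2 and 18.1 TPM in TKO and 19.7 and 19.3 TPM in NKO libraries on IgG, was low in both targeted lines. BACE2 was above NT in both, with ratios on IgG of 4.52 in TKO and 1.39 in NKO cells.

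Between the coatings the 59 genes went both ways in NT cells, 29 higher and 30 lower on DLL4, with a median difference of -0.02. In NT cells 11 of the 59 changed with DLL4 by limma's test, 3 up and 8 down, beside 16.0% of all genes (7.68% up and 8.34% down). ETS2 fell from 54.9 and 54.5 TPM on IgG to 27.9 and 23.8 TPM on DLL4 (-1.06 ± 0.13, limma adjusted p = 0.00033). RCAN1 fell by 0.62 ± 0.10 and RRP1, with 61.3 and 70.2 TPM on IgG and 47.4 and 42.8 TPM on DLL4, by 0.53 ± 0.10, and these 3 genes passed with every library left out in turn. SLC19A1 (-0.65 ± 0.13) lost its call without NT library 3 on IgG (limma adjusted p = 0.066) or on DLL4 (adjusted p = 0.056), and CHAF1B (-0.57 ± 0.12) without NT library 3 on DLL4 (adjusted p = 0.057). ADAMTS1 (-0.66), MRPL39 (-0.41) and PSMG1 (-0.40) fell as well, and TTC3 (0.53), TMEM50B (0.35) and IL10RB (0.31) rose. Of these last 6, every call ended without NT library 3 on IgG and without NT library 3 on DLL4, and all but that of TMEM50B without NT library 2 on IgG and all but that of ADAMTS1 without NT library 2 on DLL4. The number of calls was then 4, 3, 6 and 6. The call of IL10RB also ended without either TKO library on DLL4 or NKO library 2 on DLL4, that of PSMG1 without either TKO library on DLL4, and that of TMEM50B without any 1 TKO library or either NKO library on DLL4.

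In TKO cells 3 of the 59 genes changed with DLL4, all of them down, beside 6.51% of all genes (4.11% up and 2.41% down). ADAMTS1 fell from 101 and 96.1 to 51.1 and 32.9 TPM (-1.24 ± 0.18, limma adjusted p = 0.0023), ETS2 by 0.76 ± 0.13 and RCAN1 by 0.65 ± 0.10. The call of RCAN1 ended without TKO library 3 on DLL4 (limma adjusted p = 0.0504), and 5 genes passed without TKO library 2 on IgG. In NKO cells limma called 0 of the 59, beside 0.782% of all genes. An unadjusted p under 0.05 was found for 3 (5.08%), beside 9.18% of all genes. ETS2 went from 58.8 and 46.9 to 42.4 and 36.0 TPM there, a difference of -0.42 ± 0.13 that did not pass (limma adjusted p = 0.25).

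Whether DLL4 moved the genes differently in the lines was tested directly by the difference of the responses. For TKO minus NT limma called 0 of the 59, beside 0.526% of all genes. An unadjusted p under 0.05 was found for 8 (13.6%), beside 15.5% of all genes. The smallest adjusted p was that of SLC19A1, whose response was more positive in TKO cells by 0.73 ± 0.18 (limma adjusted p = 0.10). Its exons overlap those of the more abundant COL18A1, which itself differed between the coatings by 1.02 in NT and 0.46 in TKO cells. For NKO minus NT limma also called 0, beside 0.887% of all genes. There 10 (16.9%) had an unadjusted p under 0.05, beside 12.9% of all genes. ETS2 came first there, with a response more positive by 0.64 ± 0.18 (limma adjusted p = 0.15).

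Genes of the same complexes and pathways that lie on other chromosomes were read in the same fit, from 15 lists written from textbook knowledge. Of 194 such genes tested, 26 rose and 39 fell in TKO against NT cells on IgG, and 38 rose and 16 fell on DLL4, where 27.6% of all genes changed on IgG (15.2% up, 12.4% down) and 26.6% on DLL4 (16.1% up, 10.5% down). Of these 194, 19 lie on chromosome 11 or 18, and 14 of them rose and 0 fell on each coating. On the remaining chromosomes 12 of 175 rose and 39 fell on IgG, and 24 rose and 16 fell on DLL4. These are 6.86% and 22.3% on IgG and 13.7% and 9.14% on DLL4, where 11.1% and 13.1% of all tested genes off chromosomes 11, 18 and 21 rose and fell on IgG, and 12.3% and 10.95% on DLL4. Without NT library 3 or TKO library 3 the number called on IgG was 41 or 43, and on DLL4 it was 35 without NT library 3. Each partner gene named below kept its call under all alternatives run for the coating given, unless a lost call is stated.

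Subunits of the chaperonin and of the mitochondrial ribosome encoded off chromosome 21 were lower in TKO cells on IgG more often than higher. While CCT8 was higher in TKO cells, 3 of the 7 other chaperonin genes tested fell and 0 rose on IgG. CCT4 went from 257 ± 6.69 to 190 ± 8.44 TPM (SD, n = 2; -0.43 ± 0.07, limma adjusted p = 0.0009), and CCT3 (-0.37) and CCT7 (-0.32) fell as well. On DLL4 CCT4 (-0.30) and CCT7 (-0.17) fell, but the call of CCT4 ended without NT library 2 or TKO library 3 on DLL4, and that of CCT7 in 12 of 21 alternatives. Of 32 mitochondrial ribosome genes off chromosome 21, 16 fell and 3 rose on IgG, with a median of -0.27. On DLL4 1 fell and 6 rose, with a median of 0.03 that became -0.01 with median-of-ratios rescaling and -0.04 with quantile normalisation. Many of the falls on IgG hung on 1 library. The calls of MRPL3, MRPL12, MRPL37, MRPL40, MRPS2, MRPS5, MRPS7, MRPS9, MRPS11, MRPS12 and MRPS15 ended without TKO library 3 on IgG. All of these but MRPL40 also lost their calls without NT library 3 on IgG. The rise of MRPL15 on IgG lost its call in 13 of 21 alternatives. MRPL2 fell on IgG from 81.1 ± 1.20 to 54.7 ± 4.12 TPM and MRPS18A from 60.9 ± 2.28 to 43.4 ± 6.07 TPM, while MRPL11, on chromosome 11, rose by 0.45 on IgG and 0.80 on DLL4. The test of the difference between the coatings called 0 of the 194 partner genes by limma. Of these, 47 had an unadjusted p under 0.05, where 15.5% of all tested genes did. In chromatin assembly, the histone chaperone gene ASF1A fell on both coatings (-0.55 and -0.74) and its paralog ASF1B rose on DLL4 (0.64). In the TRAPP complex 2 of 13 genes rose and 2 fell on IgG, among them TRAPPC4 of chromosome 11 (0.36 up) and TRAPPC6A (-1.04).

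In the signalling and enzyme lists some genes rose strongly. Of 11 genes of amyloid precursor processing 3 rose and 0 fell on each coating. BACE1, the beta-secretase and a paralog of BACE2, rose from 7.43 ± 0.94 to 33.8 ± 7.46 TPM on IgG (2.03 ± 0.16, limma adjusted p = 6.6e-06), and the APP paralog APLP2 by 0.95 ± 0.09, both on chromosome 11. PSEN2, a presenilin on chromosome 1, rose by 1.01 ± 0.14 on IgG. In the calcineurin and NFAT list 2 of 10 rose: NFATC1 of chromosome 18 (0.74 on IgG, 1.05 on DLL4) and DYRK1B, a paralog of DYRK1A on chromosome 19, from 0.51 to 3.75 TPM on IgG. Of 29 interferon-stimulated genes 7 rose and 3 fell on IgG, and 9 rose and 2 fell on DLL4. BST2, which tethers budding virus particles, rose from 32.4 ± 4.35 to 155 ± 21.3 TPM on IgG, and UBE2L6, TRIM21 and TRIM22 of chromosome 11 rose by 1.94, 0.87 and 1.94 on that coating. ISG15 fell from 53.4 ± 4.74 to 24.4 ± 3.04 TPM and the immunoproteasome gene PSMB9 by 0.96 on IgG. The median of that list on IgG, 0.04, became -0.04 with quantile normalisation. Among the 10 signalling partners of the receptors, SOCS3, a feedback inhibitor of cytokine signalling, fell by 0.73 on IgG and SOCS1 rose by 0.84 on DLL4.

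Of 12 genes that BACH1 represses in other cells, 0 rose and 2 fell on IgG, and 1 rose and 4 fell on DLL4. Among the falls on DLL4, those of FTL, ME1 and SLC7A11 lost their calls in 3, 3 and 5 of 21 alternatives. NQO1, a quinone reductase, fell from 712 ± 25.3 to 470 ± 6.23 TPM on IgG (-0.60 ± 0.06, limma adjusted p = 3.3e-05). Its fall on DLL4 was 0.32 on the log2 scale, and FTL, ferritin light chain, fell by 0.46 on IgG. Of 11 genes of superoxide and peroxide defence, catalase (CAT), on chromosome 11, rose by 0.46 on IgG, thioredoxin (TXN) fell by 0.55 on IgG and 0.41 on DLL4, and glutathione peroxidase (GPX1) rose by 0.50 on DLL4. In purine synthesis, IMPDH2, which makes the precursor of guanine nucleotides, fell on IgG from 242 ± 3.19 to 181 ± 8.60 TPM, and 1 of the 9 genes rose and 3 fell on that coating, with a median of -0.20. On DLL4 2 rose and 1 fell, with a median of 0.15, and the difference of IMPDH2 was -0.05 (limma adjusted p = 0.64). LDHA, lactate dehydrogenase A on chromosome 11, rose by 0.38 on IgG and 0.77 on DLL4, while 3 of 13 glycolysis genes, TPI1 (-0.39) among them, fell on IgG. In SUMO and ubiquitin conjugation UBE2J1 (0.83 on IgG) and SYVN1 of chromosome 11 (0.76 on IgG), an enzyme and a ligase of endoplasmic reticulum quality control, rose with 1 more of 16 genes. Of 7 ribosome quality control genes 1 fell on DLL4. Of 10 partners of RUNX1, ETS2 and GABPA 1 rose on IgG and 3 on DLL4.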

How the data were processed

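TPM per gene symbol were deposited by the authors in 1 table of 12 columns. Kallisto, edgeR and build hg38 are named per the submitters' processing notes. How transcripts were summed to symbols and whether strand was used is not given in the sources used here. TPM of a library summed to 97.5% to 97.7% of the nominal total. Read depth is unknown, so precision is the spread between the 2 libraries of a group. No pair of libraries was identical. Column numbers differ from the label numbers, so columns were assigned to groups and not to single labelled samples.

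Genes with at least 1 TPM in at least 2 libraries (13299) were transformed to log2(TPM + 1). All 12 libraries entered a limma fit (version 3.58.1, R 4.3.3) with a variance trend, group means and Benjamini-Hochberg adjustment at 0.05, two-sided (6 residual degrees of freedom). All differences are on that scale, which understates changes of low genes. Tested on simulated data of NKO against NT on IgG (13299 genes), it called 40% of 100 genes shifted by 0.5 on the log2 scale and 96% of 100 shifted by 1, with 7 false calls. Positions are from GENCODE 29, which matched 35354 symbols and not 233. Exons of 22 of the 59 genes overlap an entry on the other strand. In 7 of them (GABPA, IFNGR2, TMEM50B, GART, SON, DONSON and SLC19A1) that entry reaches 10% of the gene's level. In MORC3 and CHAF1B an entry at that level is on the same strand. Since use of strand is not given, whether reads of these overlaps were told apart is unknown.

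The genes, lists and tests were chosen with earlier results of these data known. Text names the 6 genes with the largest and the 6 with the smallest mean TKO difference, members picked for their role, called members (at most 12 per comparison) and at most 4 genes per partner list. Ratios are given for all other members. The CCAAT search was added later. The planned GART and SON promoter region overlaps an annotated exon and is not shown. Alternatives were a pseudocount of 0.1, no filter, a mean of 5 TPM, 2 rescalings, leaving out KPNA2P2, library numbers as a block, no trend, only the libraries compared, and each library left out. Counts of partners without chromosomes 11 and 18 were added after the data were seen. Figures used matplotlib 3.10.9.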

Additional observations from a re-analysis of the deposited data

How the results depend on the processing

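The median difference of the 59 genes between TKO and NT cells stayed between 0.45 and 0.58 under the 9 alternatives that keep all libraries compared, on either coating. It ran from 0.49 to 0.65 on IgG with 1 library left out, 0.65 being the value without TKO library 2 on IgG. The sign of a single gene's difference changed under at least 1 alternative in 3 genes on IgG (PDXK, SLC19A1, ZBTB21) and 5 on DLL4 (HSPA13, IFNGR2, NRIP1, SCAF4, ZBTB21), each time by leaving out a library. The 8 calls of NKO against NT on IgG became 5 without the filter, 3 without the variance trend and 2 with only the libraries compared, and 1 to 8 with a library left out. The 16 calls on DLL4 became 6 to 18 with a library left out. The 11 calls of DLL4 against IgG in NT cells became 7 without the filter and 7 without the trend, and 3 to 13 with a library left out, and the 3 in TKO cells 2 to 5. Partner calls ran from 41 to 76 on IgG and from 35 to 59 on DLL4 with a library left out. Numbers shared by libraries are no evidence of pairing here: same-numbered libraries of different groups had correlations of -0.15 to 0.28 in their deviations from the group means. With the number as a replicate block, the 16 calls of NKO against NT on DLL4 became 9. The 8 on IgG became 6: HMGN1 (limma adjusted p = 0.068), CSTB (0.081) and CBR1 (0.067) were lost and C2CD2 passed. No other count moved by over 1.5 times. The unknown read depth limits what can be said of genes of a few TPM, such as BACH1 and ZBTB21.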

Other observations

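Among the 53 coding genes of chromosome 21 outside the list, 5 stood below NT without overlap in TKO cells on IgG and 9 on DLL4. Of all tested genes 28.0% and 28.2% did so. TFF3, TFF1, H2BFS, SLC37A1 and SIK1B were below on both coatings and were picked out after their values were seen. The share of all tested genes below on both coatings was not counted. TFF3, a secreted trefoil peptide, was at 238 and 241 TPM in NT and 11.1 and 3.59 TPM in TKO libraries on IgG, and at 405 and 413 against 10.2 and 2.86 TPM on DLL4. Its neighbour TFF1 was at 20.04 and 14.6 against 2.36 and 1.23 TPM on IgG and 395 and 405 against 29.2 and 13.4 TPM on DLL4. In NKO libraries TFF3 was also below NT, at 77.2 and 105 TPM on IgG and 73.7 and 107 TPM on DLL4, and so was TFF1, at 0.852 and 0.604 TPM on IgG and 5.09 and 6.15 TPM on DLL4, which is lower than in TKO. H2BFS was below NT in NKO libraries on both coatings as well, so these 3 entries were low in both targeted lines. H2BFS had the same TPM in all 12 libraries as the noncoding entry CU639417.1 of chromosome 21, so the levels of these entries cannot be told apart. SLC37A1 and SIK1B did not stand below NT on both coatings in NKO cells. ERG, an ETS factor that maintains endothelial identity, was at 60.9 and 62.6 against 79.4 and 109 TPM on IgG and 94.2 and 80.4 against 113 and 105 TPM on DLL4, so all 4 TKO libraries stood above NT on their coating. COL18A1, the source of endostatin, overlapped NT on IgG at 209 and 247 against 240 and 219 TPM, and was lower on DLL4 at 497 and 430 against 318 and 312 TPM. These genes were not among the proposed symbols, and no cause of their levels was tested.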
